A study of Bos taurus with 96 samples.

Results

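Intermuscular fat (Inter), the fat laid down in the seams between muscles, was compared with omental fat (Omen), the fat of the peritoneal fold that hangs over the gut. Of the 96 arrays of the study, all 12 labelled Inter and all 12 labelled Omen were used. In each depot 4 arrays held RNA of Angus, 4 of Hereford and 4 of Wagyu x Angus steers, all slaughtered at about 26 months of age after 259 days on grain in a feedlot, and all from the group labelled Pasture_Feeding for the time before it. No treatment or feeding group separated the depots. The study set out to describe how cattle fat depots differ in gene expression. Each array of the 4x44K one colour Agilent bovine design read the total RNA of 1 dissected sample, so that every value is a mean over all cells of the tissue. The same small set of steers supplied several depots. The labels do not tie arrays to animals, however, and the tests treated the 24 arrays as independent.

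Fat depots are laid down by mesenchyme from different parts of the embryo, and the cells keep a record of that position in their homeobox genes. The HOX genes lie in clusters named A to D and are switched on along the body axis in the order of their paralogue numbers, low numbers towards the head and high numbers towards the tail and the limb ends. Omental fat also differs in build from fat between muscles. It is covered by mesothelium, the epithelium-like sheet that lines the body cavities, it drains into the portal vein, and it holds clusters of immune cells known as milky spots. Intermuscular fat borders on muscle, fascia and tendon.

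Levels are given as log2 of the background-subtracted signal of a probe minus the 75th percentile of its array, so that a difference of 1 is a 2-fold change. Levels of different probes are not comparable with each other. A difference is the Inter level minus the Omen level with breed held constant, and it passed the test where the Benjamini-Hochberg adjusted p of limma over all 34227 probes was under 0.05. A gene was read from its brightest probe. The 75th percentile lay between 9.95 and 10.4 in Inter and between 9.75 and 10.47 in Omen before scaling, and 78.3% to 86.4% of the probes were well above background on an Inter array and 77.6% to 96% on an Omen array. The array headers show that all 12 Inter arrays were scanned on 1 day together with 2 Omen Angus arrays, 10-3 and 10-4 (slide and position), and the other 10 Omen arrays on another day, so that scan day and depot can be told apart only through those 2 arrays. Array 10-4 stood apart, with 5528 spots marked as outliers against at most 25 on the other 23 arrays.

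The depots differed at 4465 of 34227 probes (13%), of which 1911 (5.58% of all probes) were higher and 2554 (7.46%) lower in Inter. Counted over genes, 1440 of 10653 passed, 615 higher (5.77%) and 825 lower (7.74%), so that 13.5% is the background share against which the gene groups below are read. Of the probes past the threshold, 858 differed by more than 2-fold and 163 by more than 4-fold. In 34 genes (0.319%) the 12 Inter arrays and the 12 Omen arrays did not overlap, 20 of them higher and 14 lower in Inter. Most of these calls could not be separated from scan day on these 24 arrays, where 91 probes passed in a fit blocked on scan day. With the effect of scan day estimated over the 60 fat arrays 578 passed, and over all 96 arrays, LD muscle included, 6686. The 4465 calls shared 63 probes with the 91, 425 with the 578 and 2474 with the 6686, 2469 of the last in the same direction. The 6686 thus hold many other probes and are not a count of calls that were kept. Of the 214 genes past the threshold that are named or belong to a list, 7 turned their sign in the blocked fit, 14 on the 1 day that holds both depots and 1 in the fit over 96 arrays. The share of calls that were higher in Inter depended on the scaling, at 42.8% as given, 57.8% after quantile normalization and 67.2% after centring on the mean of each array. Array 10-4 lacked a usable spot for several genes described below, namely ANGPTL5, EYA2, VIT, HOXB9, HOXD10, NKX2-3, EN1, TBX18, GPAT2, CFI, CCL11, CCL26, CD3G, ELANE, PI16, WNT6, GREM1, COL26A1, MYH2, FLT1 and MUSK, and their Omen values rest on 11 arrays.

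Homeobox genes that mark position along the body were prominent on both sides. Of 18 HOX genes measured, 6 passed as higher in Inter and 7 as lower. The posterior gene HOXA9 had levels from -1.40 to 0.86 in Inter, with a median of -0.47, and from -6.02 to -3.22 in Omen, with a median of -4.04. The lowest Inter array was thus well above the highest Omen array, and the mean difference of 3.84 ± 0.31 (SE) was a 14.3-fold change (limma, adjusted p = 6.73e-08). A second probe of HOXA9 differed by 3.17. HOXD4 lay between 0.32 and 1.08 in Inter (median 0.69) and between -1.42 and -0.23 in Omen (median -0.85), a difference of 1.45 ± 0.11. HOXC6 had levels from 1.79 to 2.23 in Inter and from 0.52 to 1.55 in Omen, and it too showed no overlap. In the other direction HOXA2, with HOXB2 the most anterior gene measured, lay between -4.70 and -2.81 in Inter (median -4.30) and between -2.73 and -1.13 in Omen (median -2.09), a difference of -1.89 ± 0.24 that again left no overlap. Of the 18 HOX genes these 4 were the ones without overlap.

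The sign of the HOX differences followed the paralogue number in most of the genes. Of the 10 genes of paralogue groups up to 5, HOXA2, HOXA3, HOXA4, HOXA5, HOXB2 and HOXC4 were lower in Inter, by 0.59 to 1.89 on the log2 scale, and HOXD4 alone was higher. Of the 8 genes of paralogue groups from 6 up, HOXC6, HOXA9, HOXA10, HOXC10 and HOXD10 were higher in Inter, by 0.92 to 3.84, and HOXB9 alone was lower, with a difference of -0.92. HOXB3, HOXB4, HOXB7, HOXC5 and HOXC13 did not pass. The division at group 5 was drawn after the values were seen and has no test. HOXA10 was near the background of the array, above it on 8 of 12 Inter and 1 of 12 Omen arrays, with Inter levels spread from -8.37 to -1.25 and a difference of 2.98 ± 0.68 (limma, adjusted p = 0.00694). HOXD10 was above background on 8 Inter and 3 Omen arrays.

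**Figure D1:**
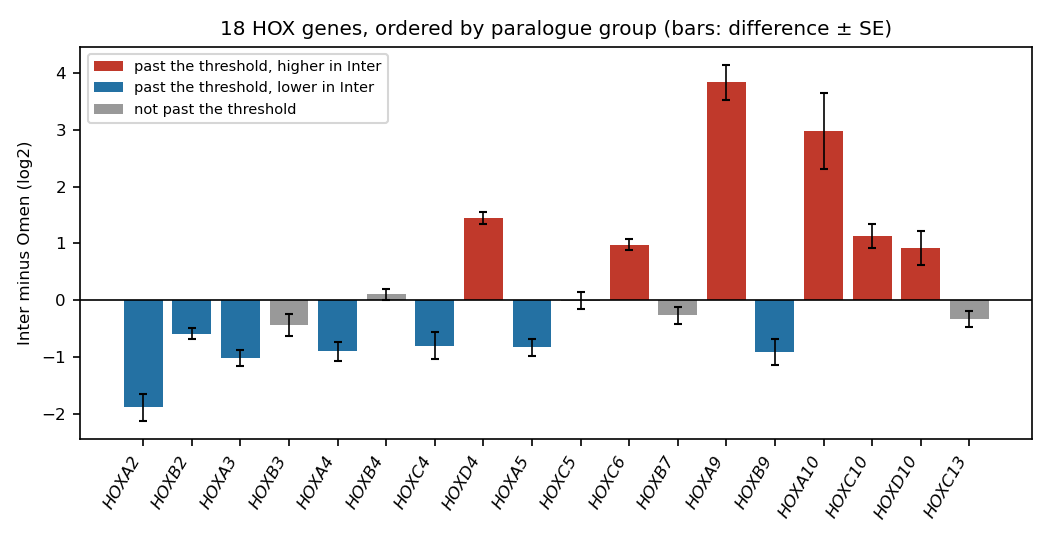
Inter minus Omen difference on the log2 scale (bars) with its standard error (whiskers) for the 18 HOX genes, from the lowest paralogue group at the left to the highest at the right. Bars below 0 gather at the left, from HOXA2 with -1.89, and the tallest bar above 0 stands at the right, HOXA9 with 3.84. The bar of HOXA10 next to it (2.98) rests on Omen signals near background, with 1 of 12 Omen arrays above it.

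The HOX genes without overlap differed by similar amounts where scan day was held constant, while some of the others did not. On the day that held 12 Inter and 2 Omen arrays, HOXA9 differed by 3.52, HOXD4 by 1.54, HOXC6 by 0.98 and HOXA2 by -1.90. HOXC4 and HOXB9, both lower in Inter over all arrays, differed there by 0.50 and 0.40 in the other direction without passing. In the fit blocked on scan day HOXA9, HOXD4 and HOXC6 still passed, and none of the 7 HOX genes lower in Inter did. With the effect of scan day estimated over 96 arrays 5 passed as higher and 6 as lower. Without both Inter arrays that carried the most muscle signal, described below, the counts were 6 and 6.

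Other transcription factors of regional identity also went both ways, 8 higher and 7 lower of 29 measured. SHOX2, a homeobox gene of the proximal limb, ranged from -1.30 to 1.14 in Inter (median 0.24) and from -4.44 to -2.13 in Omen (median -3.05), which is a 10-fold difference without overlap. EN1, a homeobox gene of limb and body wall patterning, was higher by 2.95 and was above background on all 12 Inter but only 5 Omen arrays. PRRX1, a marker of limb mesenchyme, was higher by 1.30, TBX18 by 0.69, OSR2 by 0.91, EMX2 by 0.78 and MEOX2 by 0.39. NKX2-3, a homeobox gene of gut and spleen mesenchyme, was lower in Inter, with means of -5.44 against -3.01, and its arrays did not overlap. GATA5 (-2.58), IRX5 (-1.84), NR2F1 (-1.33), TBX5 (-1.17, above background on 4 Inter and 9 Omen arrays), MEOX1 (-0.55) and TBX4 (-0.54) were lower as well. Without the 5 Omen arrays with high MSLN described below, 7 members of the list were higher and 4 lower. EYA2, a transcriptional coactivator, belonged to no list, and it was 14.6-fold higher in Inter, from -3.63 to 0.57 against -6.33 to -3.79 in Omen. SHOX2 was among the few that also passed in the fit blocked on scan day, with a difference of 2.79, and EYA2 kept a difference of 3.54 there without passing, with 10-3 as its only Omen array of the shared day. On the shared day TBX4 and TBX5 differed by 0.06 and 0.29 in the other direction.

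The other depots place these differences. HOXA9 stood at -4.20 ± 0.84 (SD, n = 12) in Omen, whereas kidney fat (Kid) at 0.80, subcutaneous rump fat (SC) at 1.36, intramuscular fat (IMF) at 0.47 and longissimus dorsi muscle (LD) at 0.22 were all above the -0.37 ± 0.69 (SD, n = 12) of Inter. HOXD4 was likewise lowest in Omen. SHOX2 was low in both fats of the abdominal cavity, at -3.13 in Omen and -2.62 in Kid, and high in Inter at 0.19, SC at 1.03 and IMF at 1.40. HOXA2 followed neither pattern, with SC highest at -1.38, Omen next at -2.06 and Inter lowest at -3.94. These levels are descriptions without a test, and the other depots were partly scanned on other days.

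**Figure D2:**
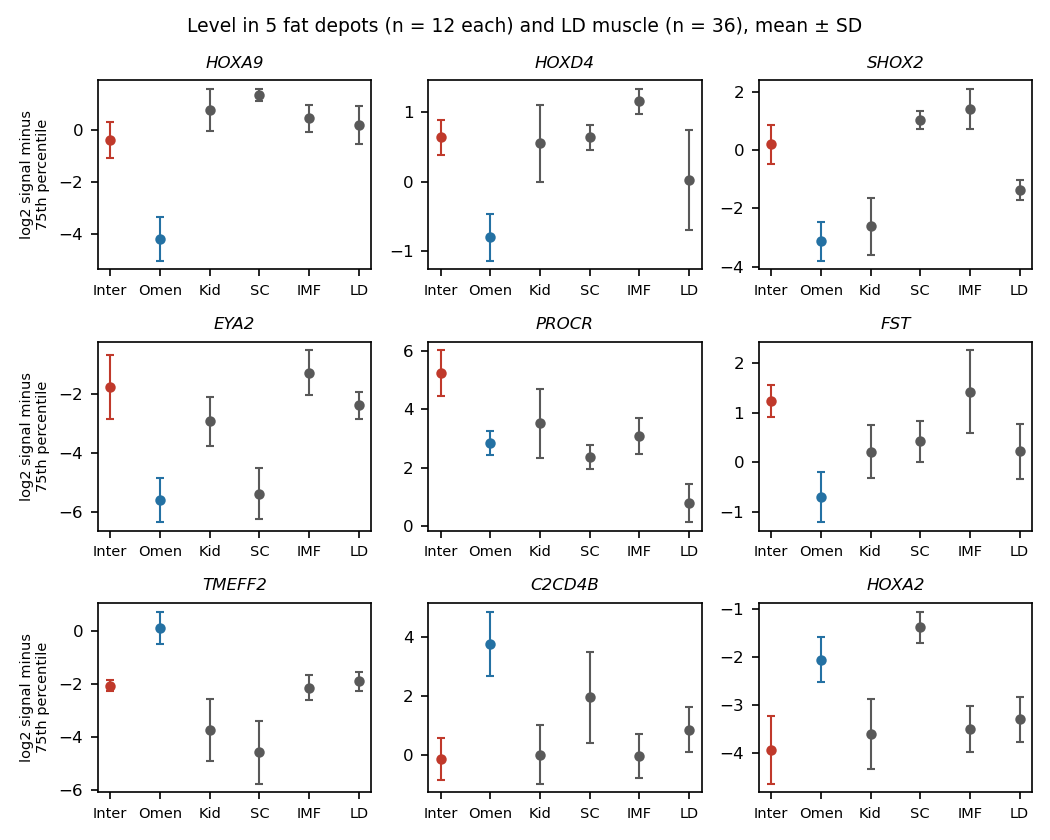
Mean level (points) and SD (whiskers) on the log2 scale relative to the 75th percentile of each array for 9 genes in Inter (red), Omen (blue), the other fat depots and LD muscle (grey), with 12 arrays per fat depot and 36 of LD. Omen is the lowest tissue for HOXA9, HOXD4, EYA2 and FST, while TMEFF2 and C2CD4B are highest in Omen and PROCR is highest in Inter.

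ANGPTL5 and ANGPTL1, secreted relatives of the angiopoietins, differed by 4.47 ± 0.51 and 2.84 ± 0.26. ANGPTL5 ranged from -3.70 to -0.13 in Inter (median -1.55) and from -8.68 to -3.84 in Omen (median -6.45), where it was above background on 7 of 11 arrays. ANGPTL1 ranged from -1.37 to 0.44 in Inter (median -0.39) and from -5.15 to -2.02 in Omen (median -3.03), and it passed in the fit blocked on scan day with a difference of 4.03. All arrays with a value were thus separated by depot for both genes. PROCR, the endothelial receptor of protein C, was bright in both depots and ranged from 4.13 to 6.93 in Inter (median 5.20) and from 2.34 to 3.50 in Omen (median 2.78), a 5.24-fold difference. Its level of 5.25 in Inter was above the mean of every other depot and of LD, the next being Kid at 3.53.

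VIT (vitrin, a matrix protein) was 8.41-fold higher in Inter, and ASPN (asporin, a small proteoglycan that binds collagen) 2.89-fold. FST (follistatin, which binds activins and myostatin) ranged from 0.68 to 1.67 in Inter (median 1.2) and from -1.68 to -0.05 in Omen (median -0.72), with a difference of 1.93 ± 0.17, and it passed in the fit blocked on scan day with 2.11. Every Inter array was therefore above every Omen array for this activin inhibitor. PPARGC1A, the coactivator of mitochondrial biogenesis, ranged from -1.52 to 0.37 in Inter (median -0.95) and from -3.0 to -1.62 in Omen (median -2.38), a 2.88-fold difference, and both other probes of the gene passed in the same direction.

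**Figure D3:**
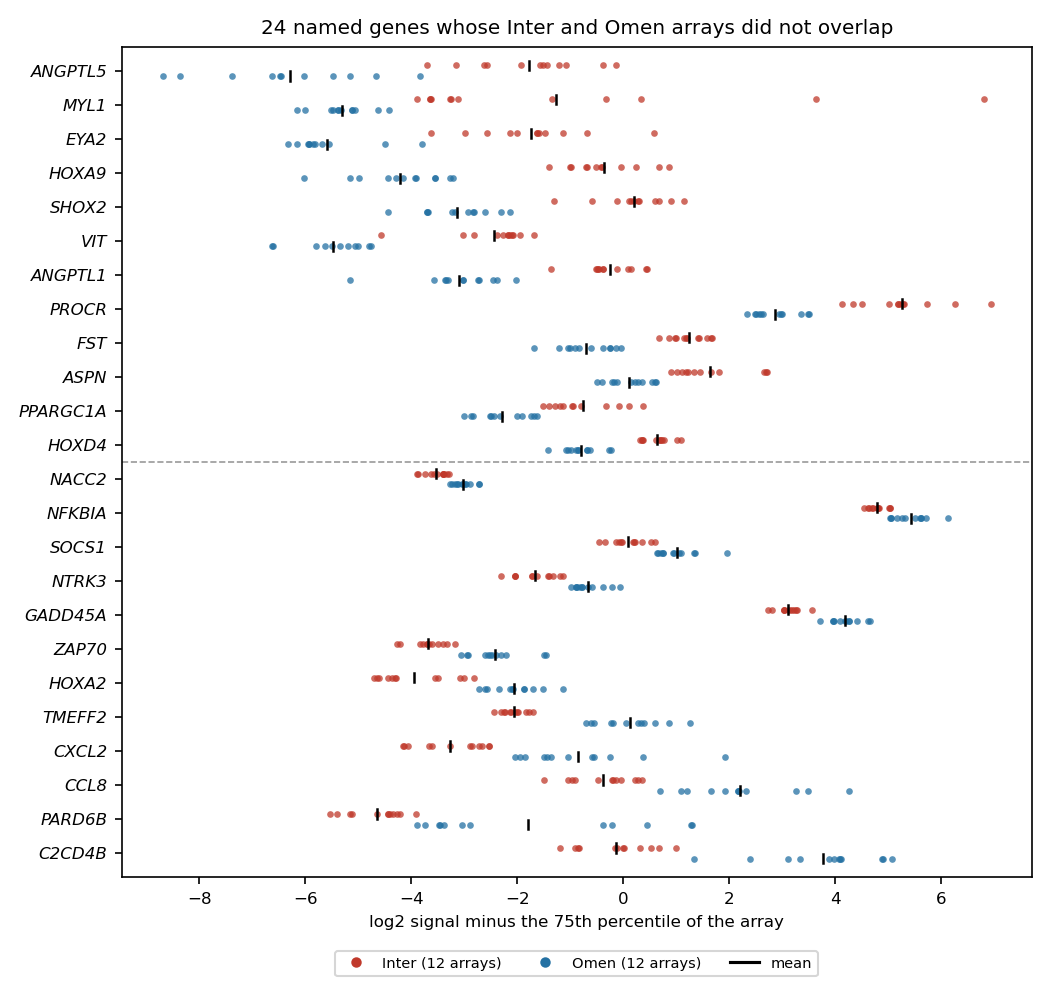
Level on the log2 scale of each Inter array (red) and each Omen array (blue) for the 24 named genes whose depots did not overlap, with the mean of each depot as a black bar; ANGPTL5, EYA2 and VIT have 11 Omen arrays. The 12 genes above the dashed line were higher in Inter, led by ANGPTL5 with a difference of 4.47, and the 12 below it were lower, down to C2CD4B with -3.89. The Omen values of PARD6B fall into a low and a high set, and 2 Inter values of MYL1 lie far above the others.

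The gene with the largest fall in Inter among those without overlap was C2CD4B, a gene named for its C2 domain. It ranged from -1.19 to 1.0 in Inter (median -0.06) and from 1.33 to 5.07 in Omen (median 4.01), a 14.8-fold difference that also passed in the fit blocked on scan day (difference -3.67). TMEFF2, a membrane protein with follistatin-like domains, ranged from -2.44 to -1.71 in Inter (median -2.08) and from -0.70 to 1.25 in Omen (median 0.16), and it too passed in that fit (-2.33). Omen had the highest mean of all tissues sampled for both genes. NTRK3, the receptor of neurotrophin-3, was lower in Inter by 1.01 ± 0.14 and NACC2, a transcriptional repressor, by 0.51 ± 0.09, both with a small gap between the depots. Another probe of NACC2 differed by 0.42 in the other direction without passing.

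Few genes of fat storage itself passed. None of 18 genes of de novo fatty acid synthesis passed, none of 21 of beta-oxidation and none of 15 of adrenergic and natriuretic control. Of 17 genes of triacylglycerol synthesis GPAT2 alone passed, lower by 0.43, and of 16 of lipolysis and lipid droplet coats FITM1 alone, lower by 0.34. Among 19 genes of fatty acid uptake SLC27A6 was higher by 0.81 and ACSL4 by 0.30, a count of 2 that fell to 1 without any 1 of 14 arrays and without the 5 Omen arrays with high MSLN described below. None of 13 adipocyte markers passed, and their summed level was alike, from 9.09 to 9.87 in Inter and from 9.28 to 10.01 in Omen, against 7.04 to 8.09 in LD muscle. A p that misses the threshold does not show equal expression. The single differences lay between -0.19 and 0.67 in fatty acid synthesis, between -0.37 and 0.43 in beta-oxidation and between -0.95 and 0.39 in adrenergic and natriuretic control. The outcome depended on probe and fit for some of them. The brightest probe of PGD, an enzyme that supplies NADPH, differed by 0.43 (limma, adjusted p = 0.0535), whereas 4 other probes of it passed as higher in Inter, by 0.49 to 0.68. With the effect of scan day estimated over 96 arrays 8 genes of beta-oxidation and 4 of lipolysis and lipid droplet coats passed as higher in Inter. Heat shock proteins (0 of 17), ribosomal proteins (1 higher, RPS9, and 1 lower, RPLP1, of 75, neither past by another of its probes) and cell cycle genes (MCM6 higher, of 18) were as quiet, and the call of RPS9 was lost without any 1 of 17 arrays.

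Of 21 adipogenic transcription factors 4 were higher in Inter and none lower: PPARGC1A by 1.52, EBF2 by 0.90, ZNF423 by 0.54 and EBF1 by 0.52. EBF2 and ZNF423 mark committed adipocyte precursors. EBF2 and PPARGC1A also count among the 13 brown and beige fat genes, of which COX7A1 (0.69) and TMEM26 (0.76, near background) were higher and SLC7A10 was lower by 1.46, a call that was lost without Omen Hereford 7-3. Respiratory chain subunits were higher in 8 of 78 and lower in none, by 0.22 to 0.69. That count is not firm, since leaving out 1 array moved it between 2 (without Inter Angus 3-1) and 21 (without Omen Angus 11-3), and without both Inter arrays with the most muscle signal it was 1. Of 21 genes of cholesterol synthesis FDFT1, MVD and HSD17B7 were higher by 0.34 to 0.37, and between 0 and 6 passed when 1 array was left out, 0 without Inter Hereford 3-3 or Omen Hereford 19-4 and 6 without Inter Wagyu x Angus 5-2.

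**Figure D4:**
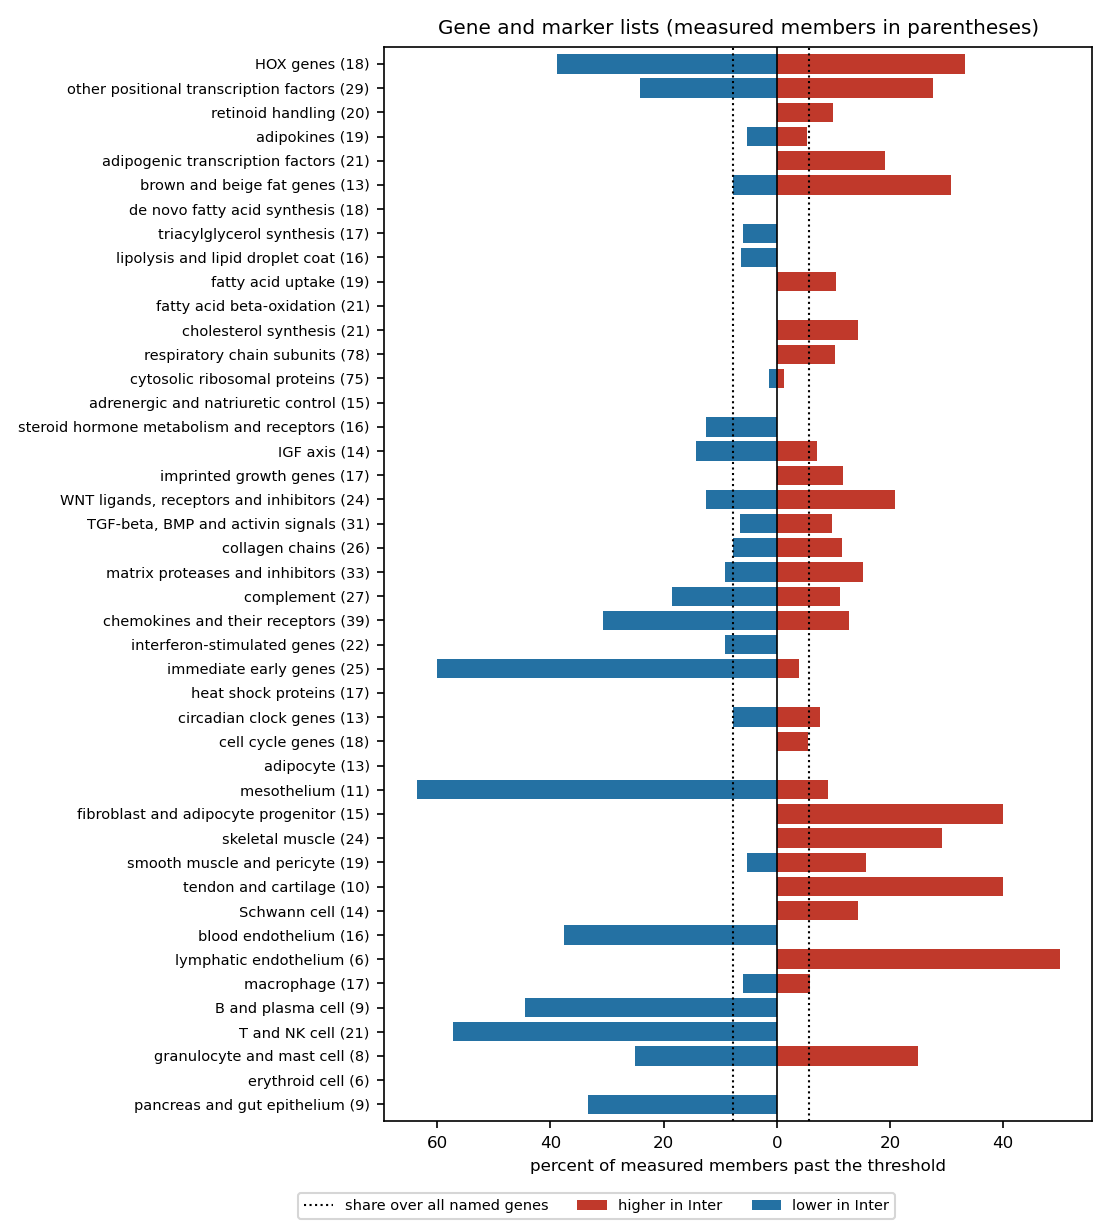
Share of the measured members of each gene or marker list that passed as higher (red, right) or lower (blue, left) in Inter. The number of members is in parentheses. Dotted lines at 5.77% and 7.74% mark the shares over all 10653 genes with a symbol, called named genes in the legend. Mesothelium, immediate early genes and T and NK cells reach furthest to the left, and lymphatic endothelium, fibroblasts and tendon furthest to the right.

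Chemokines split by depot. Of 39 chemokines and receptors 12 were lower in Inter and 5 higher, with a median difference of -0.54 beside 0.013 over all genes. CXCL3, which attracts neutrophils, ranged from 0.68 to 4.00 in Inter (median 1.89) and from 3.59 to 6.71 in Omen (median 5.11), a difference of -3.15 (limma, adjusted p = 1.56e-06), and the ranges met only at their ends. CXCL2 ranged from -4.15 to -2.53 in Inter and from -2.04 to 1.91 in Omen, a 5.30-fold difference without overlap. CCL8, which attracts monocytes, ranged from -1.50 to 0.35 in Inter and from 0.69 to 4.25 in Omen, 5.99-fold apart. Omen was thus higher on every array for CXCL2 and CCL8. CXCL8 (-1.59), CCL2 (-1.51) and CCL5 (-1.04) were lower in Inter too. CCL11, an eotaxin that attracts eosinophils, was lower by 4.21, with 5 of 12 Inter and 10 of 11 Omen arrays above background.

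A second set of chemokines ran the other way. CXCL14, which is made by stromal cells, ranged from -2.31 to 2.55 in Inter (median 1.38) and from -3.83 to -1.45 in Omen (median -2.60), a difference of 3.86 (limma, adjusted p = 2.35e-06). CCL26 and CCL24, the other eotaxins, were higher in Inter by 2.32 and 1.89. Of the 3 eotaxins, then, CCL11 was higher in Omen and CCL24 and CCL26 in Inter. ACKR2, a receptor that scavenges chemokines, was higher by 1.2 and CCL16 by 0.73. On the shared scan day CXCL14 differed by 3.59, CCL24 by 1.75, CXCL3 by -2.38 and CCL8 by -1.78. CCL2 differed there by 0.02 in the other direction. No chemokine passed in the fit blocked on scan day on the 24 arrays, whereas over 96 arrays 14 passed as lower and 4 as higher.

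Complement genes were called in both directions as well, 5 lower and 3 higher of 27. C3, the central component, ranged from -1.17 to 2.20 in Inter (median -0.14) and from 1.02 to 5.16 in Omen (median 2.56), a difference of -3.15. CFI, a protease that inactivates C3b, was lower in Inter by 3.0, C5, above background on 4 Inter and 9 Omen arrays, by 1.62 and C7 by 1.06. The higher ones were C6 by 1.68, the receptor C3AR1 by 1.10 and the membrane inhibitor CD59 by 0.42, a count of 3 that became 5 without Omen Hereford 19-4. IL6, a cytokine that fat tissue secretes, was lower in Inter by 2.80 (limma, adjusted p = 0.0019), with single arrays from -3.95 to -0.23 in Inter and from -1.80 to 3.82 in Omen.

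Of 21 markers of T and NK cells 12 were lower and none higher, among them ZAP70, the kinase of the T cell receptor, whose arrays did not overlap (-4.27 to -3.17 in Inter, -3.06 to -1.46 in Omen). CD3E (-0.97), CD3G (-0.79), CD5 (-0.89), CD8A (-0.51), CD8B (-1.23) and CD96 (-1.03) were lower too. Of 9 markers of B and plasma cells BLK, MS4A1, MZB1 and CD79A were lower, by 0.53 to 1.11, but without the 5 Omen arrays with high MSLN described below, 1 was lower and 1 higher, and none passed in the fit blocked on scan day. The summed level of the T and NK markers lay between 4.32 and 5.18 in Inter and between 4.53 and 5.48 in Omen. That of the B and plasma cell markers lay between 3.44 and 5.26 in Inter and between 3.55 and 5.37 in Omen. Such sums are weighted towards the brightest probes, as CD4 among the T and NK markers (median 3.9 in Inter and 4.22 in Omen). The T and NK sum was highest in LD muscle, from 5.47 to 6.45. It therefore does not describe the list as a whole. In RNA of whole tissue, fewer cells of a type and less RNA per cell cannot be told apart. Without both Inter arrays that carried muscle signal 5 T and NK markers passed in place of 12. In the fit blocked on scan day 0 of them passed. With scan day estimated over the 60 fat arrays 2 passed as lower, and over 96 arrays 12. Of 17 macrophage markers SIGLEC1 was higher by 0.57, LYZ was lower by 0.34 and the others did not pass by their brightest probe. The macrophage count is not firm, since 4 were higher without Inter Wagyu x Angus 5-2 or Omen Hereford 19-4, 3 without the 5 Omen arrays with high MSLN, and other probes of CSF1R and C1QA passed as higher. The call of LYZ was lost without any 1 of 18 arrays. Of 8 markers of granulocytes and mast cells the mast cell genes CPA3 and KIT were higher by 1.07 and 0.78 and the neutrophil genes S100A8 and ELANE lower by 1.06 and 0.84. Neither of the higher calls remained with scan day estimated over 96 arrays, and none of the list was higher without the 5 arrays with high MSLN. The count of lower ones fell from 2 to 1 in both these settings and without any 1 of 10 arrays.

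Immediate early genes, which cells switch on within minutes of a stimulus, were lower in Inter in 15 of 25 and higher in 1 (CCN2, by 0.68), with a median difference of -0.80. FOSB ranged from 3.25 to 4.61 in Inter (median 3.98) and from 4.43 to 6.77 in Omen (median 5.70), a difference of -1.62 ± 0.22 (limma, adjusted p = 5.87e-05). FOS ranged from 3.27 to 5.16 in Inter (median 4.23) and from 4.01 to 6.28 in Omen (median 5.80). IER2 ranged from 2.93 to 3.93 in Inter (median 3.34) and from 3.37 to 5.21 in Omen (median 4.38). In each of these 3 genes Omen Angus 10-4 was the lowest Omen array, and no more than 1 of the other 11 lay below the highest Inter array. JUNB (-1.38), SOCS3 (-1.67), PTGS2 (-2.0), ZFP36 (-1.07), EGR1 (-0.90) and NR4A1 (-0.86) were lower in Inter as well.

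Other genes without overlap were lower in Inter as well. NFKBIA, which holds NF-kappaB in check and is induced by it, ranged from 4.55 to 5.03 in Inter and from 5.03 to 6.13 in Omen, so that the depots touched without overlap. SOCS1, an inhibitor of cytokine signals, was 1.92-fold and GADD45A, a stress-induced growth arrest gene, 2.11-fold lower in Inter, both without overlap. With the effect of scan day estimated over 96 arrays neither NFKBIA (-0.32) nor GADD45A (-0.40) passed. On the scan day shared with Inter the median difference of the immediate early genes was -0.11. The 2 Omen arrays of that day differed from each other, 10-3 reading 6.28 for FOS, 5.75 for FOSB and 4.92 for IER2, all within the range of the Omen arrays of the other day, and 10-4 reading 4.01, 4.43 and 3.37. Without 10-4 the count was 16 lower. In the fit blocked on scan day no immediate early gene passed, and over 96 arrays 9 passed as lower. NR4A1, NR4A2 and NR4A3 turned their sign on the shared day.

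Genes of the mesothelium, the covering of the omentum, were lower in Inter in 7 of 11 and higher in 1, ANXA8L1. Mesothelin (MSLN) ranged from -7.97 to -4.87 in Inter (median -5.81) and from -6.09 to 0.72 in Omen (median -3.87), a difference of -3.63 (limma, adjusted p = 0.00806). Keratin 18 (KRT18) was lower by 2.38, uroplakin 3B (UPK3B) by 1.53, CLDN15 by 1.12, KRT19 by 0.73, KRT8 by 0.46 and UPK1B by 0.43. No member passed in the fit blocked on scan day. With scan day estimated over the 60 fat arrays 1 passed as lower, and over 96 arrays 7 passed as lower and 1 as higher. The summed level of the list was 5.14 to 5.85 in Inter and 5.29 to 6.42 in Omen, and 5.9 to 6.22 in SC, which has no peritoneal cover. That sum is weighted towards bright probes such as UPK1B (median 4.78 in Inter and 5.21 in Omen), and MSLN adds little to it. It is therefore no measure of mesothelial content. Within Omen the arrays fell into a high and a low set for several of these genes. MSLN was between 0.09 and 0.72 on 5 Omen arrays (Angus 10-3, Hereford 7-4 and 19-4, Wagyu x Angus 7-2 and 11-1), and between -6.09 and -3.79 on the other 7. The same 5 arrays held KRT18 levels from 0.40 to 1.6 against at most -2.80 on the other 7, and UPK3B levels from 0.89 to 1.68 against at most -1.22.

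Several of the strongest Omen genes shared this split. On those 5 arrays C3 lay between 5.07 and 5.16, on the other 7 between 1.02 and 2.56. PARD6B, a polarity protein of epithelia, lay between -0.39 and 1.29 on the 5 arrays, between -3.89 and -2.90 on the other 7 and between -5.53 and -3.92 in Inter, so that its low Omen arrays only just cleared Inter. GATA5 lay between 0.95 and 2.09 against -3.32 to -1.19, and its highest Inter array read -1.02, above all of the other 7 Omen arrays. The 5 arrays came from all 3 breeds and from both scan days. Without them 1669 probes passed, and the mesothelium list had 1 member lower and 3 higher, the complement list 3 and 8, the immediate early list 5 and 1, the chemokines 7 and 5, the T and NK markers 3 and 0 and the HOX genes 6 and 5.

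**Figure D5:**
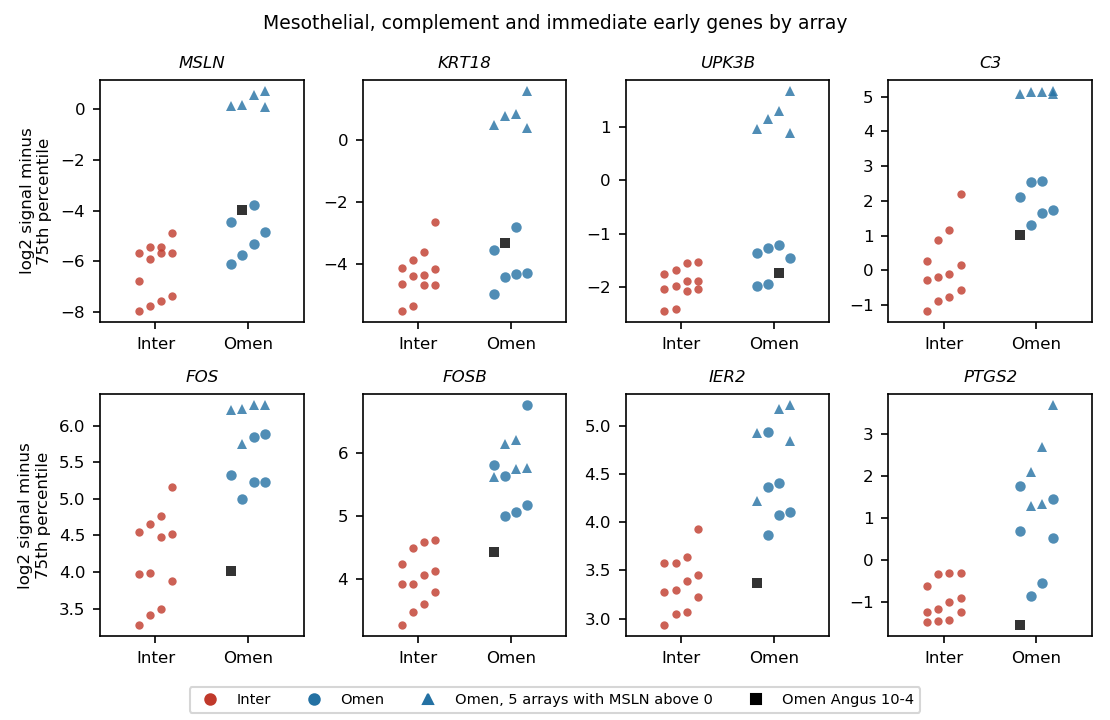
Level on the log2 scale relative to the 75th percentile of each array for 8 genes, with 1 point per array of Inter (red) and Omen (blue). Triangles mark the 5 Omen arrays with MSLN above 0, which form a separate high set for MSLN, KRT18, UPK3B and C3, and the black square marks Omen Angus 10-4, the lowest Omen array for C3, FOS, FOSB, IER2 and PTGS2.

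Of 15 markers of fibroblasts and adipocyte progenitors 6 were higher and none lower, namely PI16 by 2.37, FBN1 (fibrillin-1) by 1.86, FAP by 1.45, MFAP5 by 0.97, CLEC3B by 0.65 and DCN (decorin) by 0.42. PI16 ranged around a mean of 2.50 in Inter and 0.13 in Omen. On the shared scan day FAP differed by 1.84 and FBN1 by 1.22. Of this list 4 members passed as higher with scan day estimated over 96 arrays, 2 over the 60 fat arrays, 3 without the 5 Omen arrays with high MSLN and 0 in the fit blocked on scan day. Of 24 WNT ligands, receptors and inhibitors 5 were higher, the inhibitors SFRP4 by 2.03 and DKK2 by 1.86 (another probe of DKK2 by -0.43, not past the threshold) and the ligands WNT2 by 1.78, WNT2B by 1.02 and WNT11 by 0.57. The 3 lower ones were the ligand WNT6 by 0.81 and the feedback inhibitors NKD1 by 1.2 and AXIN2 by 0.87, both of which are targets of the canonical WNT pathway, and without Inter Angus 4-3 the lower count was 5.

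Of 31 TGF-beta, BMP and activin signals FST, FSTL1 (0.98) and BMP5 (0.95) were higher in Inter, whereas BMP4 was lower by 1.08 and its antagonist GREM1 by 1.5. Of 26 collagen chains COL5A2, COL8A1 and COL6A6 were higher by 0.50 to 1.58, and COL4A3 and COL26A1 lower, the first above background on 5 Inter and 11 Omen arrays and the second on 0 and 3. The lower calls are not firm, since leaving out any 1 of 18 arrays left 1 or 0 of them, and without the 5 Omen arrays with high MSLN 1 collagen was higher and 0 lower. Of 33 matrix proteases and inhibitors 5 were higher, among them MMP2 by 0.66, and 3 lower, among them ADAMTS1 by 1.09, and with 1 array left out the counts lay between 2 and 6 and between 1 and 3. In the IGF axis IGFBP6 was higher by 1.11 and STC1 lower by 1.02. Without the 5 Omen arrays with high MSLN no member of that axis was higher. The count of lower genes fell from 2 to 1 without any 1 of 8 arrays for the TGF-beta, BMP and activin signals and of 7 arrays for the IGF axis. PHLDA2, an imprinted growth suppressor, was higher by 2.46 with means of 1.33 in Inter and -1.13 in Omen.

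Of 16 markers of blood endothelium 6 were lower in Inter and none higher, FLT1 by 0.84, PLVAP by 0.57, EMCN by 0.51, CLDN5 by 0.46, PECAM1 by 0.37 and TIE1 by 0.33. Of 6 markers of lymphatic endothelium LYVE1 was higher by 1.34, MMRN1 by 0.92 and RELN by 0.92. The lymphatic count is not firm, since it was 1 in place of 3 without any 1 of 13 of the 24 arrays, among them Omen Angus 10-4. In the fit blocked on scan day no marker of either list passed, and FLT1 differed by 0.01 in the other direction.

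Some Inter samples read high for markers of skeletal muscle, and some for markers of tendon. Of 24 markers of skeletal muscle 7 were higher in Inter, among them the myosin heavy chain MYH2, which was above background on 12 Inter arrays and on 1 of 11 Omen arrays, so that its difference of 6.55 rests on Omen signals near background. Their summed level ranged from 1.72 to 10.17 in Inter (median 2.36), from 1.77 to 2.26 in Omen and from 12.51 to 13.29 in LD. Inter Wagyu x Angus 5-2 stood at 10.17 and Wagyu x Angus 3-2 at 6.79, and the other 10 Inter arrays at 3.81 or less. MYL1, the myosin light chain that was higher on every Inter array, read 6.81 on 5-2, 3.64 on 3-2 and between -3.89 and 0.33 on the other 10, against -6.15 to -4.42 in Omen. Without these 2 arrays the count of muscle markers was 7 again, whereas leaving out only 3-2, Inter Hereford 3-3 or any of the Omen Wagyu x Angus arrays 7-1, 7-2, 11-1 and 11-4 left 4, and leaving out the 5 Omen arrays with high MSLN left 3. The tendon list had 4 of 10 members higher, THBS4 by 3.68, TNMD (tenomodulin, above background on 11 Inter and 6 Omen arrays) by 3.90, KERA by 2.51 and MKX by 1.85, and its summed level was 7.76 on 5-2, 7 on Angus 4-4 and 6.14 on Wagyu x Angus 5-3, against at most 4.57 on the other 9 Inter arrays and 3.57 in Omen. Without Inter Wagyu x Angus 5-3 or Omen Wagyu x Angus 11-4 the tendon count was 2, and without the 5 Omen arrays with high MSLN it was 1. The defining fast muscle gene MYH1 was above background on 11 Inter and 2 Omen arrays. Of 14 Schwann cell markers 2 were higher, among them GFRA3 by 0.77, and 12 did not pass.

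Of the genes that the study followed across its depots from the comparison with SC, DLK1, an inhibitor of adipocyte formation, ranged from 1.59 to 3.94 in Inter and from 1.57 to 3.35 in Omen by its brightest probe, a difference of 0.10 ± 0.21 (limma, adjusted p = 0.803). Its 4 other probes differed by 1.99 ± 0.88 (0.134), 1.94 ± 0.87 (0.14), 0.54 ± 0.57 (0.566) and -0.14 ± 0.26 (0.761). The first of these is the probe by which the study followed DLK1. None of the probes passed, and they disagree in size and in sign. TDH, a threonine dehydrogenase, differed by 0.07 ± 0.59 (limma, adjusted p = 0.953), with both depots spread over several units, and CLDN10, a claudin, by 1.28 ± 0.89 (0.358).

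Breed did not change the comparison detectably. No probe passed the limma test of a depot difference that depends on breed, and 2037 had an unadjusted p under 0.05. The 5 genes with the smallest p for this term, MUSK, ATRN, TMEM35A, SLC40A1 and RAB3IP, all had an adjusted p of 0.826. TMEM35A, as an example, differed by 0.50 in the Angus arrays, by -0.78 in those of Hereford and by -0.81 in those of Wagyu x Angus, with 4 arrays against 4 in each. HOXA9 differed by 3.64, 3.70 and 4.17 in the same order, TMEFF2 by -2.06, -2.20 and -2.32, and C2CD4B by -2.96, -4.36 and -4.34. The Omen arrays scanned on the day of the Inter arrays, 10-3 and 10-4, were both Angus. All Omen arrays of Hereford and Wagyu x Angus were scanned on the other day. A gap between Angus and the other breeds therefore cannot be told apart from scan day. MYL1 differed by 2.61, 2.37 and 7.08, and the breed with the last value holds the arrays 5-2 and 3-2 described above. With 4 arrays per breed and depot, 80.5% of simulated breed-dependent changes of 2 on the log2 scale were recovered, and smaller ones were not simulated. The simulated arrays held no effect of scan day, slide or animal.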

How the data were processed

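Total RNA of each sample was read on its own one colour array. The intensity values deposited by the authors are those of the scanner software (Feature Extraction 10.7.3.1), whose processed signal is background-subtracted and not scaled between arrays. The log2 values deposited by the authors, a table of median spot signals less local background, set which 34227 of the 43653 non-control probes were tested and were used as an alternative. The mixed model normalisation described in the methods was not repeated.

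The level of a probe was log2 of its processed signal minus the 75th percentile of the array. Spots marked as outliers were left out, no spot was saturated, and no dim probe was removed. The depots were compared by limma 3.58.1 in R 4.3.3 with breed as covariate, two-sided, with Benjamini-Hochberg adjustment over all probes and a threshold of 0.05. Dependence on breed was tested by a moderated F test. On simulated data 89.5% of changes of 1 in log2 were recovered between the depots, with 8 false calls among 34227 probes. The simulated arrays were independent and held no effect of scan day, slide or animal. These rates therefore do not cover the overlap of scan day and depot in the real arrays. RefSeq accessions gave the symbol of 19903 probes and supplementary spreadsheets that of 4440, and 62.7% of the probes, standing for 10653 genes, had one.

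Named singly by rule were the 12 highest and 12 lowest genes without overlap that passed and were above background on all arrays of the brighter depot, the 4 members of each list with the smallest adjusted p, the 5 genes that the study set against all depots (HOXA10, DLK1, TDH, TMEFF2 and CLDN10), and 5 genes for breed. Further list members were named after their values were seen, and some members that count in the lists are not reported here by name. The members and lists were chosen with earlier results of these data known. Alternatives were quantile and mean scaling, normexp on the median signals with an offset of 50, the deposited log2 values, probe filters, an equal-variance test, no breed term, the spread of 60 fat arrays, blocks for slide, scan day and replicate number, and each array left out. Scan day over 96 arrays and the fits without muscle-rich, MSLN-rich or shared-day arrays were added after seeing the data. The number of arrays limits the precision. Replicate numbers are positions on a slide, the deviations of same-numbered arrays correlated between -0.18 and 0.099, and the numbers were not taken to pair animals.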

Additional observations from a re-analysis of the deposited data

How the results depend on the processing

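Of the 4465 probes past the threshold, the count became 1736 with slide as a random block, 91 blocked on scan day within the 24 arrays, 32 on the scan day that holds both depots (12 arrays against 2), 578 with scan day estimated over the 60 fat arrays and 1669 without the 5 Omen arrays with MSLN above 0. All other alternatives stayed within 1.5 times, among them quantile normalization (4144), mean centring (3702), normexp (4957), the authors' log2 values (4216) and the equal-variance test of the methods (4367). Leaving out each array gave 3379 to 5119. With the replicate block, which pairs only by slide position, 3693 passed. No probe passed for dependence on breed under any alternative run, and leaving out each array gave 0. The share of calls higher in Inter was 42.8%, and it was 57.8% with quantile normalization and 67.2% with mean centring, which moves the median of all probes by 0.12.

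Of 134 named genes past the threshold, 8 still passed when blocked on scan day within the 24 arrays, 43 with it over the 60 fat arrays and 108 with it over 96 arrays. With slide as a random block 92 passed, and without the 5 Omen arrays with MSLN above 0, 83 did. Most of these genes were named for a small adjusted p or a lack of overlap, so their shares are not those of all calls. Over all 4465 calls, 63 also passed when blocked on scan day within the 24 arrays, 425 over the 60 fat arrays and 2474 over 96 arrays. Among the genes named by rule the direction turned in 5, each without passing: FLT1 (0.01 blocked on scan day and 0.10 on the shared day), LYZ (0.04 and 0.13), MZB1 (0.07 and 0.33), RPLP1 (0.01 on the shared day) and IGF1R (0.02 with scan day over 96 arrays). Dim probes are limited by their signal over background.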

Other observations

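The 5 Omen arrays with MSLN above 0 were set apart by more than the mesothelial markers. Over 10653 genes, 42 were higher on all 5 than on each of the other 7 Omen arrays by more than 1 on the log2 scale, and 0 were lower by that gap. In 32 of the 42 genes the 5 arrays were also above every Inter array. The widest gaps were those of MSLN (3.88), LOC505033 (3.47), the desmosome gene DSP (3.23), GPM6A (3.22), KRT18 (3.2) and the claudin CLDN1 (3.03). Further down came the epithelial transcription factors KLF5 (2.49) and TFAP2C (2.03), the receptor ERBB3 (1.92), the lipoxygenase ALOX15 (1.87) and the complement genes CFB (1.49) and C2 (1.47). JCHAIN, the joining chain of secreted antibodies, was between 0.27 and 1.77 on the 5 arrays and between -2.13 and -1.63 on the other 7. ERBB3 stood in the list of Schwann cell markers, JCHAIN in that of plasma cells. The arrays were chosen by MSLN after the values were seen, so these gaps are a description without a test.

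For CFB and C2 the 5 arrays were not above every Inter array, since the highest Inter array read 6.66 for CFB against 5.32 to 5.90 on the 5 arrays, and 2.37 for C2 against 2.25 to 3.42. ANGPTL7, a relative of the angiopoietin-like genes described above, was low on all Omen arrays, at most -3.88, while its highest Inter array read 2.78. That Inter value is of a single array, and the other Inter levels of the gene are not reported here.

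Retinoid handling had RARRES1 and BCO2 higher in Inter among 20 genes, a count that was 0 without Inter Angus 3-1 and 1 without Inter Wagyu x Angus 5-3, Omen Wagyu x Angus 7-1 or Omen Hereford 7-3. The probes of STRA6, the membrane receptor for retinol transport, disagreed, since the brightest differed by 0.46 without passing and 2 others passed as lower in Inter by 3.51 and 3.34. The interferon-stimulated genes had IRF7 and MX2 lower among 22, and none of them without the 2 Inter arrays richest in muscle RNA or without the 5 Omen arrays. The circadian clock had NR1D1 higher by 0.70 and BHLHE40 lower by 0.85 among 13, and none without the 5 Omen arrays. Of 16 genes of steroid hormones ESR2, above background on 6 Inter arrays, was lower by 1.17 and STAR by 0.88, whose other probe did not pass (limma, adjusted p = 0.224). That count of 2 was 1 without Inter Hereford 3-3, Omen Wagyu x Angus 7-2, Omen Hereford 19-4 or the 2 muscle-rich Inter arrays, and 0 without the 5 Omen arrays. Of 19 markers of smooth muscle and pericytes CNN1 was higher by 1.01, PLN by 0.98 and DES, which skeletal muscle also expresses, by 0.60, and CALD1 was lower by 0.27. Without the 5 Omen arrays or the 2 muscle-rich Inter arrays 1 was higher and 0 lower, and without any 1 of 11 arrays the lower call was lost. Of 9 markers of pancreas and gut epithelium, tissues that lie next to the omentum, CDX1, CPA1 and CPB1 were lower in Inter, with CDX1 and CPB1 above background on 6 and 8 of the 12 Inter arrays. AMY2B of the same list differed by 0.44 without passing, another of its probes was higher by 0.45 (limma, adjusted p = 0.0422), and the summed level of the list had a mean of 3.19 in Inter and 3.02 in Omen. Of 6 erythroid markers none passed by its brightest probe, while another probe of AHSP was lower by 0.81. Among 208 further probes of the named genes 13 had the opposite sign to the brightest probe.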
